A study of Homo sapiens with 10 samples.

Results

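The aminoacyl-tRNA synthetases, the enzymes that attach amino acids to tRNAs, were examined in RPE-1 cells treated with sulforaphane (SFN). They were taken as every row of the count table whose symbol is a single letter followed by ARS, with or without a final 1 or 2, together with EPRS, FARSA, FARSB, TARSL2 and the scaffold genes AIMP1 and AIMP2. This gave 40 of the 28380 genes in the table: 21 cytosolic enzyme genes, 17 mitochondrial enzyme genes and 2 scaffolds. Symbols are those of the table, in which GARS stands for the gene now called GARS1 and likewise for the other cytosolic genes, EPRS for EPRS1 and TARSL2 for TARS3. A final 2 marks the mitochondrial enzyme except in TARSL2, a cytosolic threonyl enzyme, and in AIMP2, so these were not placed with the mitochondrial genes. GARS and KARS each encode a cytosolic and a mitochondrial enzyme and were counted with the cytosolic genes.

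RPE-1 is a telomerase-immortalized line of human retinal pigment epithelial cells. SFN is a reactive plant compound found in broccoli and related plants, and the study asked whether it elicits responses like those of starvation. For 4 h, 5 replicates received 25 µM SFN and 5 received DMSO, the vehicle. All came from this cell line in complete medium, and the study's methods call its replicates independent in general without saying what separated these libraries. The p-values measure the spread between these samples, which may be in part technical. Among the defining markers of retinal pigment epithelium, RPE65, RLBP1, LRAT, TYRP1, TTR and SERPINF1 had too few counts for a test. MITF and OTX2 were well detected and fell with SFN (log2 fold changes -1.12 and -0.64). PMEL had a value of 0.14 (standard error 0.40) and BEST1 of 1.17 (standard error 0.56), neither of which passed, although BEST1 was called higher without DMSO replicate 1 (1.68, adjusted p = 0.0096). BEST1 was at 107 CPM in SFN replicate 2, against 19.4 to 33.4 CPM in the other SFN libraries. The summed markers ranged from 62.5 to 104 CPM in DMSO and from 55.8 to 137 CPM in SFN, with the upper SFN value from replicate 2. CPM are read counts after TMM scaling of the libraries, and they are not corrected for transcript length, so levels are compared between libraries and not between genes. Among the tested markers of epithelium, fibroblasts, endothelium and neurons KDR alone was called, lower, with a log2 fold change of -1.77. Without DMSO replicate 1, KRT8 (0.37) was also called higher and COL1A1 (-0.53) and PDGFRB (-0.43) lower. Blood markers summed to at most 1.43 CPM. The part of these genes in the results below was not tested.

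Each synthetase charges tRNA with its own amino acid for protein synthesis. Separate nuclear genes serve the cytosol and the mitochondrial matrix for most amino acids, and part of the cytosolic enzymes form the multisynthetase complex, which AIMP1 and AIMP2 hold together. tRNA that is left uncharged activates the kinase GCN2, whose signaling raises translation of the transcription factor ATF4. ATF4 is known to induce a number of cytosolic synthetase genes, through composite sites that it binds together with C/EBP proteins.

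The promoters were searched for a core of that composite site, TGATGNAA, on both strands, because synthetase genes with and without it can then be set beside their response. The windows, from RefSeq on GRCh38.p14, run from 250 bases before each start site to 50 bases after it, and 32 of the 40 members had one. YARS, DARS, LARS, VARS, AARS2, VARS2 and TARSL2 were among the 8 that had none. The motif was found in 8 of the 32, compared with 4.46% of all 27305 genes with a window and 3.62% of all 35116 windows. The 8 matches are shown in the direction of the gene with the motif in capitals, and the position given is that of its leftmost base, where 0 is the start site.
GARS, chr7:30594834-30594863, plus strand, motif at -33: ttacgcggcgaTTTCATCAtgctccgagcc
MARS, chr12:57488053-57488082, plus strand, motif at -4: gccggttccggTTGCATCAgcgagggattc
CARS, chr11:3057407-3057436, minus strand, motif at -2: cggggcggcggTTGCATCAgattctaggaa
NARS, chr18:57621804-57621833, minus strand, motif at 14: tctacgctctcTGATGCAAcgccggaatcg
TARS, chr5:33440956-33440985, plus strand, motif at 2: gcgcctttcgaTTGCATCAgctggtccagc
IARS, chr9:92293692-92293721, minus strand, motif at -13: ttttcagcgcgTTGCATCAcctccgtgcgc
AARS, chr16:70289675-70289704, minus strand, motif at -187: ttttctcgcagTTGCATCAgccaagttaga
YARS2, chr12:32756076-32756105, minus strand, motif at -197: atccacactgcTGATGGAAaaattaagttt
GARS and MARS2 lay at the upper and lower end of the fold changes described below, and for this reason the 250 bases before their start sites are also given, with the same motif in capitals where it occurs.
GARS, chr7:30594628-30594877, plus strand: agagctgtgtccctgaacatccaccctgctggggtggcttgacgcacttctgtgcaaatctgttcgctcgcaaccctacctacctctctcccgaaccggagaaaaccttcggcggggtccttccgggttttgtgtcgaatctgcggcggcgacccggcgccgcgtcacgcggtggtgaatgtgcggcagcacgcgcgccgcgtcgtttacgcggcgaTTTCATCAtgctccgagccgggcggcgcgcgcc
MARS2, chr2:197705119-197705368, plus strand: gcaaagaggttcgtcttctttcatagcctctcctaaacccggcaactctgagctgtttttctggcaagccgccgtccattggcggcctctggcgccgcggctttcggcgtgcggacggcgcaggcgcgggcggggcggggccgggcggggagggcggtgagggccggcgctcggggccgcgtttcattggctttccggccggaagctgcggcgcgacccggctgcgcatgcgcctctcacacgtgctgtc
The motif was read as TTGCATCA, the reverse complement of TGATGCAA, in MARS, CARS, TARS, IARS and AARS. Relative to the RefSeq start of the window, it lay at or near the start site in MARS, CARS, NARS, TARS and IARS. By the same measure it lay somewhat further upstream in GARS, and far upstream in AARS and YARS2. These distances depend on the start taken. On the minus strand the GENCODE gene of AARS begins at 70289707, so its motif, at 70289686 to 70289693, is inside that gene and near its end. The other matches except that of YARS2 are also inside their GENCODE genes.

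SFN raised the mRNA of 9 of the 21 cytosolic synthetase genes, which were GARS, MARS, CARS, YARS, NARS, SARS, TARS, WARS and EPRS. Their increases ranged from 1.30-fold for EPRS to 2.44-fold for GARS. Among the cytosolic genes 1 fell, TARSL2. None of the 17 mitochondrial genes rose, and 3 of them, MARS2, HARS2 and TARS2, fell. All 40 members passed the low-count filter, and a call means an adjusted p under 0.05 in the quasi-likelihood test of edgeR over all 13378 genes tested. In that test 9.07% of all genes were called higher, against 42.9% of the cytosolic members, and 13.9% were called lower, against 17.6% of the mitochondrial members, a share near that of all genes. At an unadjusted p under 0.05 the 17 mitochondrial genes numbered 0 higher and 5 lower. Of all 13378 genes, 4624 had such a p in either direction, a larger share. DESeq2 likewise called 0 of the mitochondrial genes higher. The median log2 fold change was 0.20 for the cytosolic and -0.15 for the mitochondrial genes, beside -0.028 for all genes tested. The difference between the compartments was not tested. GARS, MARS and MARS2, 3 of the 40 members, were called with more than a 2-fold change. This share is near the 8.69% of all genes in either direction.

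**Figure D1:**
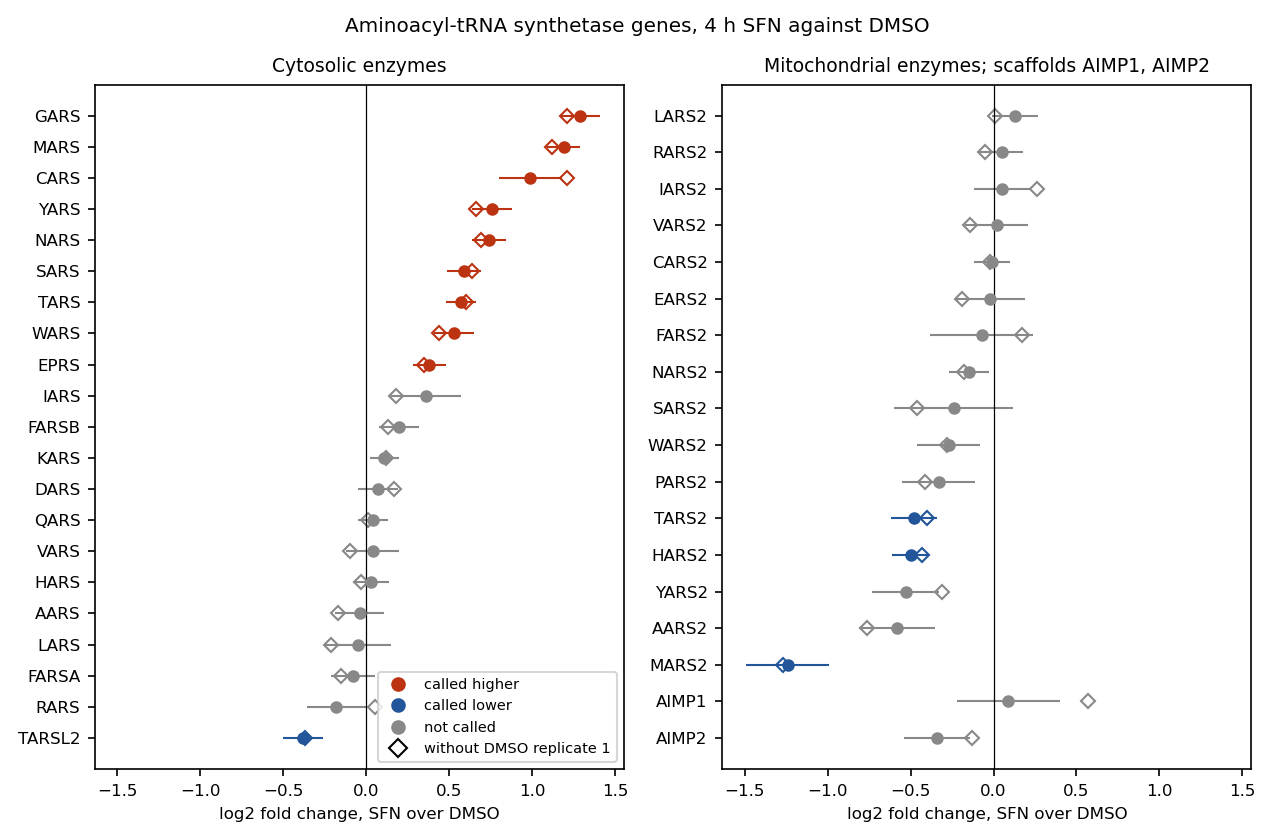
Log2 fold change of SFN over DMSO for 39 members (filled circles, with bars of 1 standard error from the edgeR fit of 5 against 5 replicates) and the value without DMSO replicate 1 (open diamonds). Red genes were called higher and blue genes lower, and the 9 red genes are all cytosolic, from EPRS at 0.38 to GARS at 1.29.

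DMSO replicate 1 stood apart from the other libraries for many members. Relative to the mean of DMSO replicates 2 to 5, its log2 CPM ranged from -1.76 for SARS2 to 1.58 for AIMP1, and it was above all 4 of the others for 12 members and below them for 23. The Spearman correlation of this deviation with the length of the canonical transcript was -0.411 over the 40 members, which all share this library. Calls of members that changed without DMSO replicate 1 are therefore given below. Total counts ranged from 15689294 to 20666692 per library in DMSO and from 12375860 to 17308706 in SFN.

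**Figure D2:**
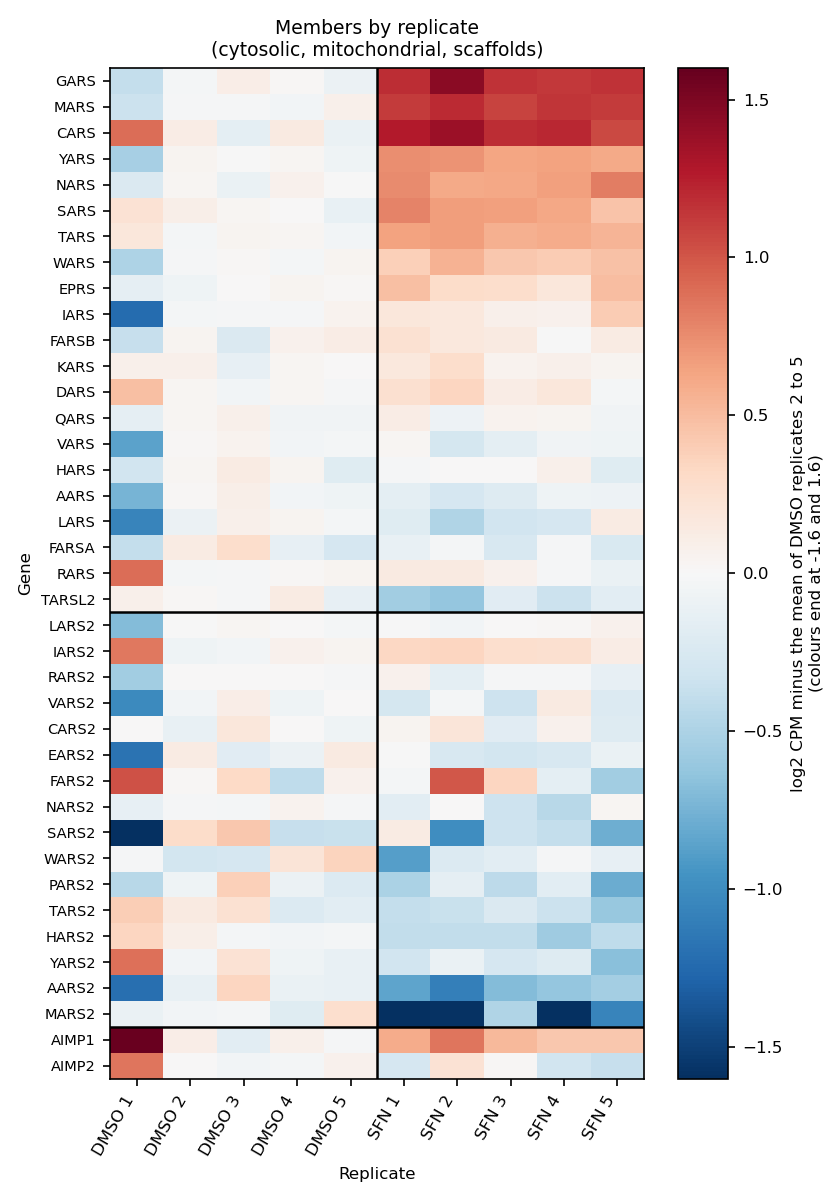
Log2 CPM of 39 members in each of the 10 libraries minus the mean of DMSO replicates 2 to 5, with genes ordered by fold change within the cytosolic, mitochondrial and scaffold groups. The first column, DMSO replicate 1, departs from the other DMSO columns in many rows, while the rows from GARS to EPRS are raised in all 5 SFN columns.

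GARS charges tRNA with glycine in both the cytosol and mitochondria, and its gene lies on chromosome 7 from 30580533 to 30634033 of GRCh38. The 5 DMSO replicates had 135, 172, 190, 178 and 165 CPM, in the order of their numbers. With SFN the values were 399, 480, 393, 386 and 393 CPM, so that the lowest SFN library was more than double the highest DMSO library. The mean rose from 168 ± 20.5 (SD, n = 5) to 410 ± 39.1 CPM, a log2 fold change of 1.29 (standard error 0.12, adjusted p = 1.8e-05). This was the largest increase among the members, and it remained past the threshold in all 18 alternatives. At the start of GARS, 312 exonic bases overlap the divergent transcript GARS1-DT on the opposite strand.

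MARS, the cytosolic methionyl enzyme, supplies methionine for the start as well as the extension of protein chains made in the cytosol. Its gene lies on chromosome 12 from 57475445 to 57517569. Its DMSO values were 70.6, 88.9, 89.2, 87.2 and 94.8 CPM and its SFN values 195, 205, 190, 198 and 195 CPM. The groups were far apart, and the SFN replicates differed little from each other. The increase was 2.28-fold, or 1.19 on the log2 scale (standard error 0.10, adjusted p = 9.0e-06). The 3′ part of MARS shares 355 exonic bases with DDIT3, the gene of the stress transcription factor CHOP, on the opposite strand. DDIT3 itself rose, from 7.57 ± 1.67 to 35.1 ± 7.80 CPM (log2 fold change 2.21, adjusted p = 1.1e-05). Whether the counting used strand is not given in the sources used here, so reads of the shared stretch cannot be told apart.

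CARS, the cysteinyl enzyme on chromosome 11 from 3000922 to 3057613, was the third member near a 2-fold increase. Values of 84.1, 49.2, 40.6, 50.2 and 42.3 CPM were found in DMSO and of 109, 117, 103, 105 and 94.1 CPM in SFN. The highest DMSO value, from replicate 1, was just under the lowest SFN value, and the other 4 were well below. On the log2 scale the increase was 0.99 (standard error 0.19, adjusted p = 0.0025), and 1.21 (standard error 0.09) without that library.

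YARS, which charges tyrosine and lies on chromosome 1 from 32775237 to 32818031, had 123, 184, 177, 182 and 169 CPM in DMSO and 298, 294, 275, 277 and 270 CPM in SFN. NARS, the asparaginyl enzyme on chromosome 18 from 57600656 to 57622213, had 261, 314, 285, 322 and 306 CPM in DMSO and 517, 468, 470, 483 and 539 CPM in SFN. For both genes DMSO replicate 1 was the lowest library and all SFN values were above all DMSO values. The increases were 1.69-fold for YARS (adjusted p = 8.5e-04) and 1.67-fold for NARS (adjusted p = 2.7e-04).

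SARS charges serine, also onto the tRNA that later carries selenocysteine, and lies on chromosome 1 from 109213918 to 109238182. It was measured at 186, 168, 161, 159 and 145 CPM in DMSO and 275, 252, 250, 242 and 216 CPM in SFN. TARS, the main cytosolic threonyl enzyme, on chromosome 5 from 33440696 to 33468091, was measured at 375, 324, 340, 339 and 320 CPM in DMSO and 517, 524, 491, 498 and 484 CPM in SFN. Here replicate 1 gave the highest DMSO value, and the groups did not overlap for either gene. The log2 fold change was 0.59 for SARS (standard error 0.10, adjusted p = 0.0017) and 0.57 for TARS (standard error 0.09, adjusted p = 9.1e-04).

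WARS charges tryptophan and is also known as an interferon-induced gene. It lies on chromosome 14 from 100333790 to 100376805 and had 43.2, 60.3, 61.7, 59.6 and 62.7 CPM in DMSO, with the first replicate lowest, and 79.4, 89.6, 82.4, 81.1 and 84.2 CPM in SFN. EPRS, whose protein joins a glutamyl and a prolyl enzyme in the same chain, lies on chromosome 1 from 219968600 to 220046530. It had 286, 302, 318, 328 and 321 CPM in DMSO and 442, 389, 386, 360 and 447 CPM in SFN. In both genes every SFN library was above every DMSO library. The increase of WARS was 1.45-fold (adjusted p = 0.0057) and was not past the threshold when libraries were scaled by size only (adjusted p = 0.055). That of EPRS was 1.30-fold (adjusted p = 0.017), and it passed in 12 of the 18 alternatives, but not with limma-voom (adjusted p = 0.14), library size only (adjusted p = 0.12), no low-count filter (adjusted p = 0.095) or the replicate block (adjusted p = 0.07). It was also lost without DMSO replicate 2 (adjusted p = 0.051) or SFN replicate 1 (adjusted p = 0.056).

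**Figure D3:**
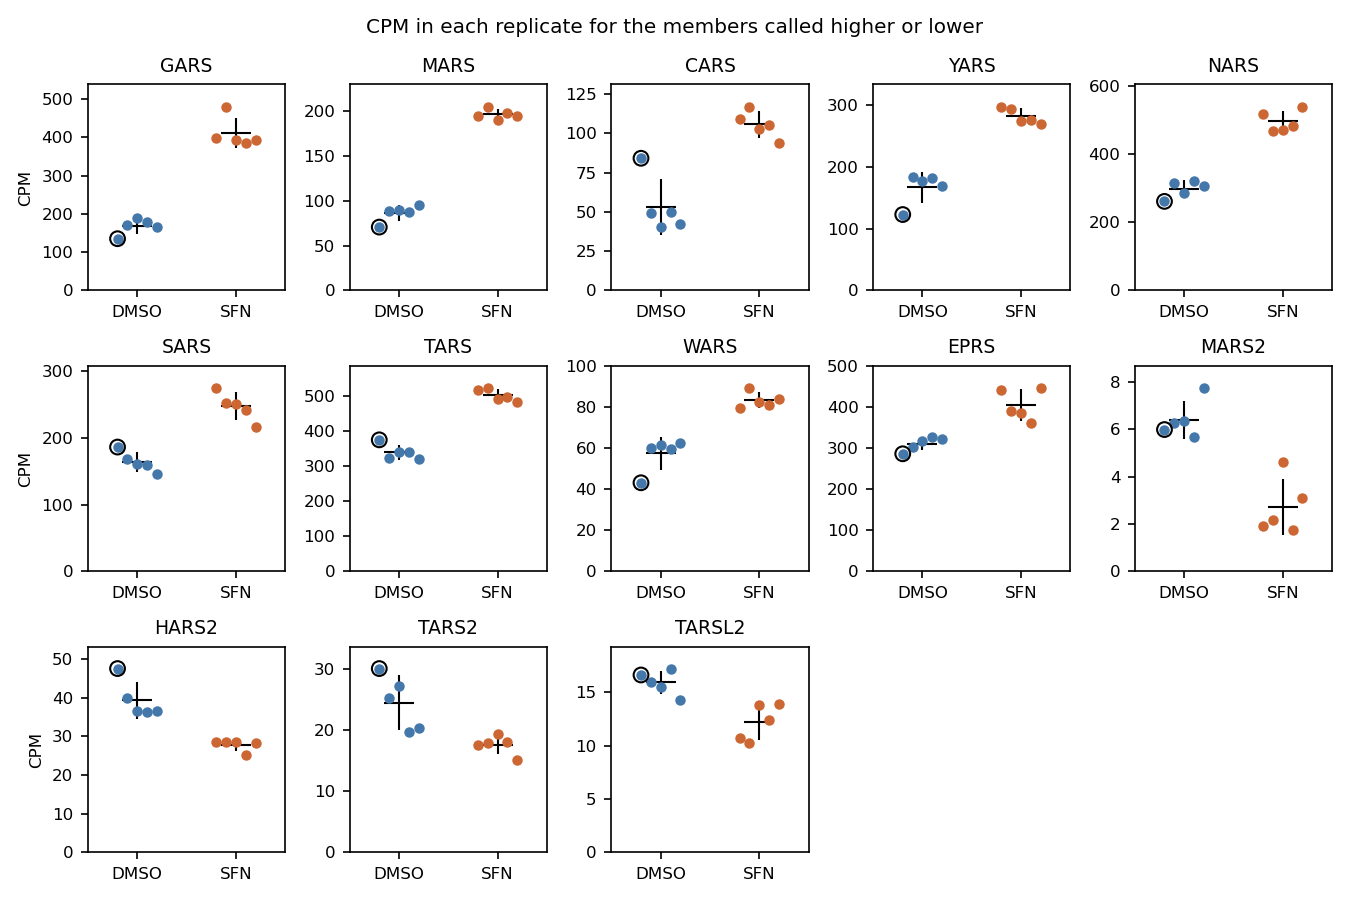
CPM of the 13 members called higher or lower in each DMSO (blue) and SFN (orange) replicate, with horizontal marks at the mean and bars of 1 SD, and DMSO replicate 1 circled. Axes start at 0. The SFN points lie above all DMSO points for the first 9 genes and below them for MARS2, HARS2, TARS2 and TARSL2, by a narrow gap for TARS2 (19.4 against 19.6) and TARSL2 (13.9 against 14.3).

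The other 11 cytosolic genes did not pass the test. IARS, the isoleucyl enzyme, had 126, 290, 293, 293 and 307 CPM in DMSO and 334, 333, 312, 311 and 393 CPM in SFN. Its groups did not overlap, but with DMSO replicate 1 so far below the rest its log2 fold change of 0.36 had a standard error of 0.21 (adjusted p = 0.25), and without that library the value was 0.18 (standard error 0.08, adjusted p = 0.086). For FARSB, KARS, DARS, QARS, VARS, HARS, AARS, LARS, FARSA and RARS the log2 fold changes lay between -0.18 (RARS, standard error 0.18) and 0.20 (FARSB, standard error 0.12). Without DMSO replicate 1 the value was 0.05 for RARS (standard error 0.08), -0.21 for LARS (standard error 0.11) and 0.17 for DARS (standard error 0.08), and again none of the 10 passed. AARS, the alanyl enzyme, carried the TGATGNAA motif and had a log2 fold change of -0.04 (standard error 0.15). Without DMSO replicate 1 the value for AARS was -0.17 (standard error 0.08, adjusted p = 0.091 by edgeR). In that comparison every SFN value of AARS was below every DMSO value. QARS, the glutaminyl enzyme, varied little, from 98.6 to 115 CPM in DMSO and from 103 to 118 CPM in SFN (log2 fold change 0.04, standard error 0.09). The 2 subunits of the phenylalanyl enzyme, FARSA and FARSB, had log2 fold changes of -0.08 (standard error 0.13) and 0.20.

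Of the cytosolic genes, 8 encode enzymes of the multisynthetase complex, and 2 of these, MARS and EPRS, were called higher. Among the 13 outside the complex 7 were called higher and 1 lower. The median log2 fold change was 0.09 in the complex and 0.53 outside it. Without DMSO replicate 1 these medians lay closer together, at 0.15 and 0.44. By the fold of the catalytic domain, 4 of 9 class I genes and 4 of 11 class II genes were called higher, and EPRS belongs to both classes. Every SFN value was above every DMSO value for 10 cytosolic genes, compared with 8.78% of all genes tested. These splits were described and not tested.

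With respect to the motif, 5 of the 8 called-higher genes that had a promoter window held TGATGNAA, namely GARS, MARS, CARS, NARS and TARS. SARS, WARS and EPRS did not. It occurred in 2 of 8 other cytosolic genes with a window, IARS and AARS, in 1 of 14 mitochondrial genes, YARS2, and in 0 of the 2 scaffolds. A core of the antioxidant response element, TGACNNNGC, at which NRF2 is known to act, was found in 3 of the 8, 1 of the 8, 2 of the 14 and 2 of the 2 genes of the same groups, and in 16.1% of all genes with a window. The matches of the 2 motifs did not overlap in any member. These counts describe letters in a fixed window and are not evidence of binding.

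TARSL2, a second cytosolic gene for threonine, moved opposite to TARS. It lies on chromosome 15 from 101653596 to 101724473 and had 16.6, 15.9, 15.5, 17.2 and 14.3 CPM in DMSO and 10.7, 10.2, 13.8, 12.4 and 13.9 CPM in SFN. The groups were close but did not overlap. The fall of 0.38 on the log2 scale (standard error 0.12, adjusted p = 0.042) passed in 7 of the 18 alternatives. It was lost when DMSO replicate 2, 3, 4 or 5 or SFN replicate 1, 2 or 4 was left out, with an adjusted p of up to 0.11, and with the replicate block (adjusted p = 0.1).

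MARS2 supplies methionine for mitochondrial translation, and its gene on chromosome 2 from 197705369 to 197708395 showed the largest decrease of the members. The counts behind it were low, between 94 and 137 per DMSO library and between 25 and 62 per SFN library. Scaled, these were 5.98, 6.24, 6.32, 5.66 and 7.75 CPM and 1.91, 2.16, 4.62, 1.75 and 3.11 CPM. SFN replicate 3 was the highest SFN library and still below every DMSO library. The change was -1.24 on the log2 scale (standard error 0.25, adjusted p = 0.0042), and from -1.52 to -1.12 over the alternatives, all past the threshold.

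HARS2, the mitochondrial histidyl gene, lies head to head with HARS on chromosome 5 from 140691430 to 140699305. DMSO libraries held 47.5, 39.8, 36.6, 36.3 and 36.6 CPM of HARS2 and SFN libraries 28.4, 28.5, 28.4, 25.2 and 28.2 CPM. All SFN values were below all DMSO values, and the log2 fold change was -0.50 (standard error 0.11, adjusted p = 0.0055). HARS itself was at 108 ± 13.0 CPM in DMSO and 110 ± 7.40 CPM in SFN (SD, n = 5). HARS2 shares 108 exonic bases with HARS on the opposite strand and 152 with ZMAT2 on its own strand, and the log2 fold change of ZMAT2 was -0.08. TARS2, the mitochondrial threonyl gene on chromosome 1 from 150487414 to 150507602, had 30, 25.2, 27.1, 19.6 and 20.3 CPM in DMSO and 17.6, 17.9, 19.4, 18 and 15 CPM in SFN. The highest SFN library was just below the lowest DMSO library. TARS2 had a log2 fold change of -0.48 (standard error 0.14, adjusted p = 0.028), and passed in 12 of the 18 alternatives. The call of TARS2 was lost with limma-voom (log2 fold change -0.39, adjusted p = 0.086). It was also lost without DMSO replicate 2, DMSO replicate 3, SFN replicate 1, SFN replicate 4 or SFN replicate 5, each taken singly, with adjusted p from 0.056 to 0.068.

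In 2 mitochondrial genes the call rested on DMSO replicate 1. AARS2, the alanyl gene, had 9.96, 21.1, 29, 21.3 and 21.1 CPM in DMSO and 12.8, 10.7, 14.1, 14.9 and 15.7 CPM in SFN, and the first DMSO value was below all SFN values while the other 4 were above them. Its log2 fold change was -0.58 (standard error 0.23, adjusted p = 0.092), and without that library -0.76 (standard error 0.14, adjusted p = 5.1e-04). IARS2, the isoleucyl gene, had 346, 184, 188, 202 and 199 CPM in DMSO and 242, 245, 233, 231 and 210 CPM in SFN. Its log2 fold change was 0.05 (standard error 0.17, adjusted p = 0.87), and 0.26 (standard error 0.08, adjusted p = 0.013) without DMSO replicate 1, in which it was the only mitochondrial gene called higher. Without that library 46.1% of all genes were called, 22.5% higher and 23.5% lower, and of the 40 members 11 were called higher and 5 lower.

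The other 12 mitochondrial genes did not pass the test in either fit. The log2 fold change was -0.53 for YARS2 (standard error 0.20, adjusted p = 0.082), and -0.31 without DMSO replicate 1 (standard error 0.13, adjusted p = 0.057). LARS2, the leucyl gene, had 0.13 (standard error 0.14), and 0.01 without that library. SARS2 and PARS2 had counts as low as 16 and 18 in a library, with log2 fold changes of -0.24 (standard error 0.36) and -0.33 (standard error 0.22), and of -0.46 (standard error 0.26) and -0.41 (standard error 0.22) without DMSO replicate 1. VARS2 shares 4073 exonic bases and SARS2 1492 with another annotated transcript on the same strand, and their counts are uncertain. Summed over the 17 genes, the mitochondrial synthetases came to 696, 594, 616, 608 and 611 CPM in DMSO and 618, 626, 597, 609 and 575 CPM in SFN, and the groups overlapped. The 21 cytosolic genes summed to 2926, 3333, 3368, 3377 and 3268 CPM in DMSO and 4561, 4476, 4260, 4286 and 4469 CPM in SFN, 1.36 times as much in the mean, without overlap.

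For 17 amino acids there is a separate cytosolic and mitochondrial gene, which gave 19 pairs because threonine and phenylalanine each have 2 cytosolic genes. The log2 ratio of cytosolic to mitochondrial CPM was taken within each library, as a description. Its mean was higher in SFN for 16 of the 19 pairs, and every SFN ratio was above every DMSO ratio in 8, below in 0. Each of these 8 pairs holds a gene called above, so the count in part restates those calls. No share was computed for pairs of other genes. The pairs are also not separate, since EPRS, TARS2 and FARS2 each enter 2 of them. Methionine had the largest shift, since MARS rose and MARS2 fell. The ratio was 3.56, 3.83, 3.82, 3.94 and 3.61 in DMSO and 6.67, 6.57, 5.36, 6.82 and 5.97 in SFN, a difference of 2.53 (standard error 0.28, n = 5 per group). The differences were 1.26 for tyrosine (standard error 0.30), 1.06 for cysteine (0.20), 1.03 for threonine with TARS (0.11), 0.89 for asparagine (0.09) and 0.82 for tryptophan (0.21). Proline, with EPRS over PARS2, and histidine also separated, by 0.69 (standard error 0.21) and 0.53 (standard error 0.16). At the other end valine had 0.01 (standard error 0.12), leucine -0.16 (0.11) and arginine -0.19 (0.30). Without DMSO replicate 1, arginine was at 0.10 (standard error 0.06) and isoleucine went from 0.34 (standard error 0.43) to -0.08 (standard error 0.10). In the same libraries serine, alanine and glutamate separated too, 11 pairs in all.

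**Figure D4:**
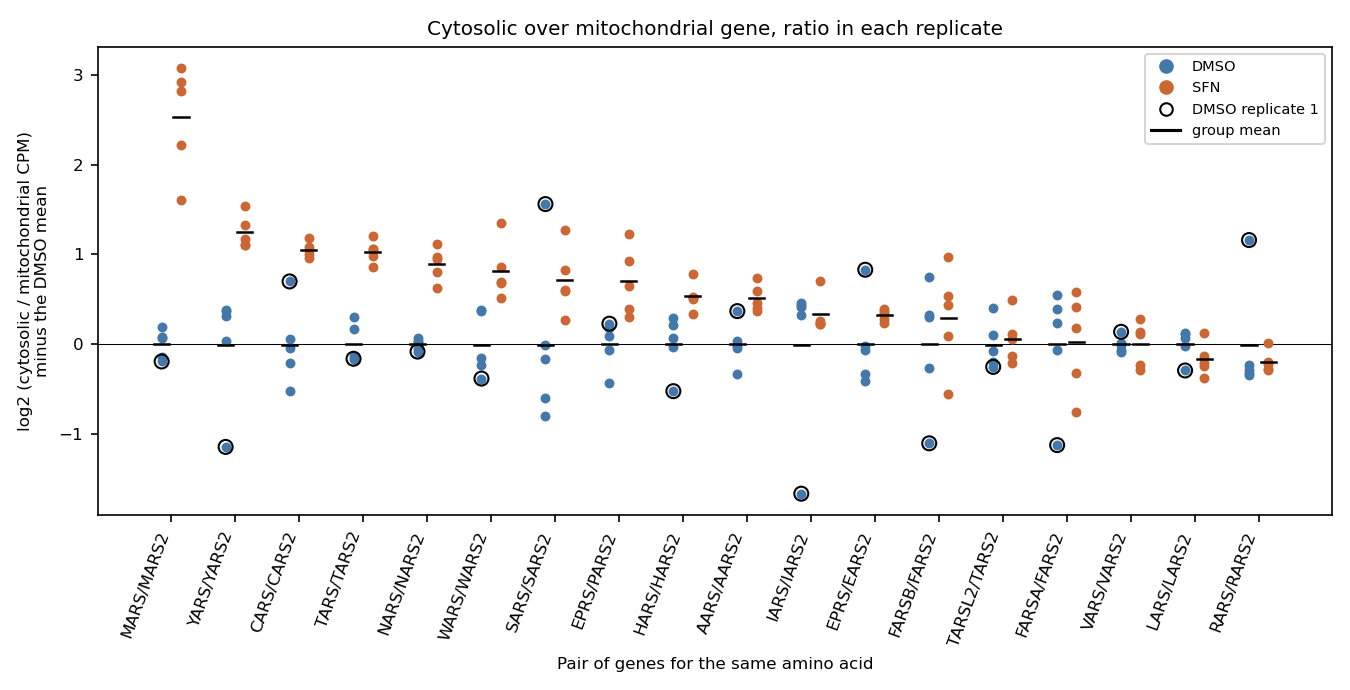
Log2 ratio of cytosolic to mitochondrial CPM in each replicate, minus the mean of the 5 DMSO replicates, for 18 pairs of genes that charge the same amino acid. Black lines are group means and open circles mark DMSO replicate 1. MARS over MARS2 is shifted most, by 2.53, and the pairs from VARS to RARS at the right lie between -0.19 and 0.01.

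AIMP1 and AIMP2 bind the enzymes of the multisynthetase complex. AIMP1 had 347, 125, 103, 123 and 115 CPM in DMSO and 175, 211, 167, 156 and 157 CPM in SFN. The first DMSO library was higher than any SFN library, and the other 4 were lower than all of them. The log2 fold change of AIMP1 was accordingly 0.09 (standard error 0.31, adjusted p = 0.87) with all libraries and 0.57 (standard error 0.10, adjusted p = 4.3e-04) without DMSO replicate 1. AIMP2 had 48, 26.6, 25.8, 26 and 27.9 CPM in DMSO and 22, 31.1, 26.9, 21.5 and 20.5 CPM in SFN, which overlapped (log2 fold change -0.34, standard error 0.20, adjusted p = 0.26, and -0.13 without DMSO replicate 1). AIMP2 shares 532 exonic bases on the opposite strand with EIF2AK1, so its counts may hold reads of that gene.

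Lists of other genes of tRNA charging were set beside the synthetases. Over all genes tested, 9.07% were called higher and 13.9% lower, and without DMSO replicate 1 these shares were 22.5% and 23.5%. XPOT, which exports mature tRNA from the nucleus, rose in the same range as the cytosolic synthetases that were called higher. It had 239, 276, 280, 288 and 288 CPM in DMSO and 430, 372, 427, 431 and 463 CPM in SFN, an increase of 0.63 on the log2 scale (standard error 0.10, adjusted p = 8.6e-04). Of 4 tested partners of the charged tRNA and the complex, 0 were called in either direction by edgeR. EEF1E1, the remaining scaffold of the complex, had a log2 fold change of 0.05 (standard error 0.34), and without DMSO replicate 1 it (0.50), EEF1A1 (0.40) and EEF1B2 (0.65) were called higher. Of 10 genes for editing and indirect charging, 1 rose and 1 fell, shares near those of all genes. QRSL1, which with GATB and GATC makes glutaminyl-tRNA in mitochondria, rose by 0.43 (standard error 0.12, adjusted p = 0.020), whereas GATB and GATC had values of 0.25 and -0.11 that did not pass. ANKRD16, which helps AARS to avoid mischarging with serine, fell by 0.84 (standard error 0.24, adjusted p = 0.027). DTD1, which removes D-amino acids from tRNA, was called higher without DMSO replicate 1 (0.41, adjusted p = 0.026) but not with all libraries (0.30). Among 4 genes of the response to uncharged tRNA, ATF4, which acts downstream of GCN2, was the gene called. Its values were 432, 192, 220, 167 and 167 CPM in DMSO and 664, 812, 691, 677 and 495 CPM in SFN. This was a 2.83-fold increase (adjusted p = 0.0015 by edgeR). GCN1, a partner of GCN2, had a log2 fold change of -0.24 (standard error 0.23), and was called lower without DMSO replicate 1 (-0.43, adjusted p = 0.005). EIF2AK4, which encodes GCN2, had a log2 fold change of -0.36 (standard error 0.20, adjusted p = 0.23). In bulk RNA of this kind, a change in the number of expressing cells and a change in RNA per cell cannot be told apart.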

How the data were processed

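RNA from 10 samples of RPE-1 cells, 5 with SFN and 5 with DMSO, was sequenced. The study's methods name Lexogen QuantSeq, which reads transcripts near their 3′ ends, whereas the labels name standard Illumina preparation, and which applies could not be settled. The authors deposited raw counts per gene without normalization. Their notes name STAR, featureCounts, FastQC, edgeR and the build hg38. Versions, use of strand and of molecular identifiers are not given in the sources used here. Positions came from GENCODE 44 and promoter windows from RefSeq.

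Genes were filtered with filterByExpr, scaled by TMM and tested with glmQLFit and glmQLFTest in edgeR 4.0.16 (R 4.3.3), with Benjamini-Hochberg adjustment over 13378 genes. Standard errors were derived from the log2 fold change and the F statistic. limma 3.58.1 and DESeq2 1.42.0 gave alternatives. The methods were tested on simulated counts. The chi-square per degree of freedom between replicates ranged from 3.5 to 243, so none were duplicates. The members and lists were chosen with earlier results of these data known. Values per replicate are given for all members called and for AIMP1 and AIMP2. IARS, IARS2 and AARS2 were added after their values were seen. From the lists, called genes and EEF1E1, XPOT, EIF2AK4 and ATF4 are named, and some genes called without DMSO replicate 1 but not with all libraries were added after their values were seen. Replicate number was not used as a block. DDIT3 and ZMAT2 were added because they overlap members. Counting error is not separated from the spread between replicates. The repeated-measure model of the study was not run. Some genes entered the counts and summaries, but their own results are not reported here.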

Additional observations from a re-analysis of the deposited data

Results flagged for a closer look

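Over the 40 members and the 3 group sums, 86 groups of 5 replicates were examined for a replicate far from the rest, measured as the share of the group's range that separates it from its neighbor. In 23 of them a replicate stood apart (above 0.71), where chance gives about 4, and in 19 of these it was DMSO replicate 1.

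DMSO replicate 1 was high for AIMP1 (0.91), AIMP2 (0.91), RARS (0.93), IARS2 (0.89), DARS (0.88), CARS (0.78) and YARS2 (0.73). It was low for RARS2 (0.95), IARS (0.91), LARS2 (0.90), VARS (0.86), WARS (0.84), LARS (0.79), VARS2 (0.79), YARS (0.76) and AARS (0.75). Its summed CPM stood apart for the cytosolic genes (0.76), the mitochondrial genes (0.78) and the scaffolds (0.91). SFN replicate 2 was high for GARS (0.86), SFN replicate 5 high for IARS (0.72), SFN replicate 4 low for HARS2 (0.93) and SFN replicate 1 low for WARS2 (0.71). Of the called genes in this list, CARS, WARS, YARS, GARS and HARS2 remained called without each of these libraries.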

How the results depend on the processing

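The 9 cytosolic increases numbered between 7 (library size only) and 9 over the other normalizations, tests and filters, between 8 and 9 when each replicate was left out, 8 with GARS and KARS left out, and 2 with a log2 fold change above 1 required. GARS, MARS, CARS, YARS, NARS, SARS, TARS, MARS2 and HARS2 were past the threshold in all 18 alternatives. The single cytosolic decrease, TARSL2, was lost (0) with DESeq2 size factors, limma-voom, no low-count filter, the replicate block and a limit of 1 on the log2 fold change. With all symbols ending in 2 taken as mitochondrial the count was 0 because TARSL2 joined the mitochondrial decreases, then 4. The count ranged from 0 to 1 when each replicate was left out.

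Mitochondrial decreases, 3 in the main result, were 1 with the limit of 1, 2 with limma-voom and 4 with library size only. They were 2 to 4 when each replicate was left out and 5 without DMSO replicate 1 and SFN replicate 2. Mitochondrial increases were 0 to 1 and 1, respectively, the gene being IARS2. The mitochondrial median of -0.147 was -0.238 with library size only, -0.047 with limma-voom, -0.244 with all symbols ending in 2, -0.218 without DMSO replicate 1 and SFN replicate 2, and from -0.199 to -0.061 with each replicate left out. The cytosolic median was between 0.160 and 0.247 in the latter and 0.104 with library size only, where the median of all genes was -0.111. The other tRNA charging genes, in lists of 4, 10, 24, 4 and 14 tested genes, gave 6 increases and 14 decreases. With each replicate left out these were 4 to 13 and 8 to 19 (13 and 19 without DMSO replicate 1). Without DMSO replicate 1 and SFN replicate 2 they were 12 increases and 21 decreases. Of all genes, 9.07% were called higher and 13.9% lower, and without DMSO replicate 1 the shares were 22.5% and 23.5%. Pairs with the higher fitted log2 fold change in the cytosolic gene numbered 15, and 14 to 16 over the alternatives. Causes were not tested.

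Over all genes, calls were 1214 higher and 1862 lower, 819 and 2163 with library size only, and 3058 and 3193 without DMSO replicate 1. Correlations of same-numbered deviations ranged from -0.367 to 0.602, and 2 of 10 samples matched best with their own number. With so few libraries, and DMSO replicate 1 standing apart, these values cannot settle whether replicate numbers pair the samples. With the replicate block calls went from 3076 to 2441, cytosolic increases were 8, EPRS being lost, and cytosolic decreases 0.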

Other observations

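Genes that make and mature tRNA were examined in the same fit. Of 24 genes of tRNA maturation and export, 3 were called higher, XPOT among them, and 7 lower, beside 9.07% and 13.9% of all genes. The lower genes included TRMT5, a tRNA methyltransferase, which fell from 37.2 ± 4.78 to 17.8 ± 1.81 CPM (SD, n = 5, log2 fold change -1.07, adjusted p = 8.8e-05 by edgeR), TRNT1, which adds the CCA end that synthetases charge (-0.75, adjusted p = 3.2e-04 by edgeR), and ELAC2, which trims the 3′ end (-0.40, adjusted p = 0.011 by edgeR). POP1, RPP25 and TSEN54 were also lower, while RPP14 and TSEN15 rose. Of 14 genes of RNA polymerase III, which transcribes tRNA, and its factors, 6 were called lower, among them POLR3A, POLR3B, POLR3E, BRF1 and BDP1. The called increase was in MAF1, the repressor of this polymerase (log2 fold change 0.42, adjusted p = 0.025 by edgeR). Without DMSO replicate 1 the polymerase III counts were again 1 higher and 6 lower, and those of maturation and export 6 and 11, beside 22.5% and 23.5% of all genes called higher and lower in that fit.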
